A study of Mus musculus with 3 samples.

Results

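The genes described here encode enzymes of xenobiotic and carbonyl metabolism in JB6 P+ cells, a mouse epidermal line used to study tumour promotion. They were chosen by symbol alone: aldehyde dehydrogenases (Aldh), aldo-keto reductases (Akr), carbonyl reductases (Cbr), alcohol dehydrogenases (Adh), cytochromes P450 (Cyp), UDP-glucuronosyltransferases (Ugt), sulfotransferases (Sult), epoxide hydrolases (Ephx), aldehyde oxidases (Aox), carboxylesterases (Ces) and flavin monooxygenases (Fmo). Cyp51, Cyp1a1, Cyp1b1 and Aldh3a1 were set aside by the rule. The table held 223 such genes, and 80 of them reached 1 CPM (a read count scaled to the size of its library) in at least 1 library, out of 13100 of 24421 genes in all. Of the other members, 69 had reads but stayed below 1 CPM and 74 had no read in any library. Cyp4a12a, at 1.12 CPM in its highest library, was the member just inside that limit, and Cyp2a4 and Sult6b1, each at 0.998 CPM, were those just outside.

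Total RNA of 3 libraries was sequenced, 1 per group. CDDO+TPA cells received the phorbol ester TPA, a tumour promoter that activates protein kinase C, at 10 ng/mL together with 50 nM CDDO, a synthetic triterpenoid known as an activator of NRF2. TPA cells received TPA alone at 10 ng/mL, and control cells carry only the label of a control. TPA and CDDO were given on alternate days for 5 days in medium with 1% serum, after growth in 10% serum. The labels do not say whether the control cells had the low-serum medium or a vehicle, and no library had CDDO without TPA.

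These enzymes work in sequence on reactive and foreign molecules. Oxidation, reduction or hydrolysis (by P450, Fmo, Aldh, Adh, Akr, Cbr, Ces and Ephx enzymes) exposes or alters a functional group, and Ugt and Sult enzymes then attach glucuronic acid or sulfate so that the product can be exported. Several also act on the body's own substrates, among them retinol, sterols, vitamin D and fatty acids. Some Akr, Cbr, Aldh, Ces and Ugt genes are known targets of NRF2, a transcription factor held in check by KEAP1 that binds antioxidant response elements.

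The libraries held 7872089 (CDDO+TPA), 7813035 (TPA) and 8190078 (control) assigned reads, which put a floor of 3 reads at 0.374 to 0.380 CPM. With no replicate, no difference below has a test, and each 95% interval covers counting error only. The size rule used below asks for a log2 fold change of 1 or more in either direction, together with a counting interval that leaves out a ratio of 1. The folds printed divide the CPM of one library by that of another, with nothing added. Beside the label of skin epithelial cells, 5 of 15 keratinocyte markers (Krt5, Krt1, Krt18, Epcam and Lor) had no read in any library. Another 6 of the 15 were measured, with 2 lower past the rule in CDDO+TPA than in TPA and 2 higher in TPA than in control. The 15 together had 145, 367 and 171 reads in CDDO+TPA, TPA and control, while 10 mesenchymal markers, 9 of them measured, had 19297, 15839 and 24387 reads. The 10 hepatocyte markers together had 32, 83 and 111 reads in CDDO+TPA, TPA and control. Of these, Cyp2e1, Cyp7a1 and Hnf4a were measured, all 3 lower past the rule in CDDO+TPA than in TPA, while Ttr, Ugt2b1 and Ces3a had no read and Alb had 1 read in CDDO+TPA alone. The 6 leukocyte markers had 606, 473 and 368 reads in CDDO+TPA, TPA and control, nearly all from Cd68 (562, 416 and 177) and Cd74 (43, 54 and 189), and Ptprc and Cd3e had no read.

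Among the 80 measured enzyme genes, 20 (25%) were higher past the size rule in CDDO+TPA than in TPA, where 7.87% of all measured genes were, and 11 (13.75%) were lower, against 7.78% of all genes. The genes that were higher included Aldh1a1 and Aldh1a7, the carbonyl reductases Cbr3 and Cbr4, 5 carboxylesterases, and Ugt1a6a and Ugt1a6b. Those that were lower included the epoxide hydrolase gene Ephx3 and the vitamin D hydroxylase gene Cyp27b1. The median log2 fold change was 0.31 over the members and 0.01 over all measured genes. In TPA against control, 8 members (10%) were higher and 13 (16.25%) lower, where 9.57% and 5.91% of all genes were, with medians of -0.31 over the members and 0 over all genes. In CDDO+TPA against control, 16 members (20%) were higher and 13 (16.25%) lower, where 8.02% and 3.37% of all genes were, with medians of 0.08 and -0.02. Some of the lower members belong to a set of sparse genes known from kidney, described further on. These are 10 of the 13 in CDDO+TPA against control and 5 of the 11 in CDDO+TPA against TPA. In TPA against control they are 4 of the 13. That set was grouped after its values were seen. Leaving it out had to reduce the counts of lower members, so the counts that remain are a description. Without the set, 3 of 70 members were lower in CDDO+TPA than in control, where 3.3% of all genes were, and 6 of 70 were lower in CDDO+TPA than in TPA, where 7.75% were. The shares of all measured genes under the same rule are also those to read beside the counts by family and list below. The 3 comparisons share libraries, so their values are set side by side and are not independent of each other. Cultures with fewer cells that express a gene and cultures with less of its RNA per cell cannot be told apart in bulk libraries. In all, 44 members were past the rule in at least 1 comparison, and Akr7a5 (log2 fold change 1.00 in CDDO+TPA against control) and Aldh3b3 (0.99 in the same comparison) lay nearest to it on either side. The other 36 had log2 fold changes between -1.21 and 1.27 in CDDO+TPA against TPA, between -0.92 and 1.09 in TPA against control and between -1.31 and 1.13 in CDDO+TPA against control, those of 1 or more in size having intervals that include a ratio of 1.

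**Figure D1:**
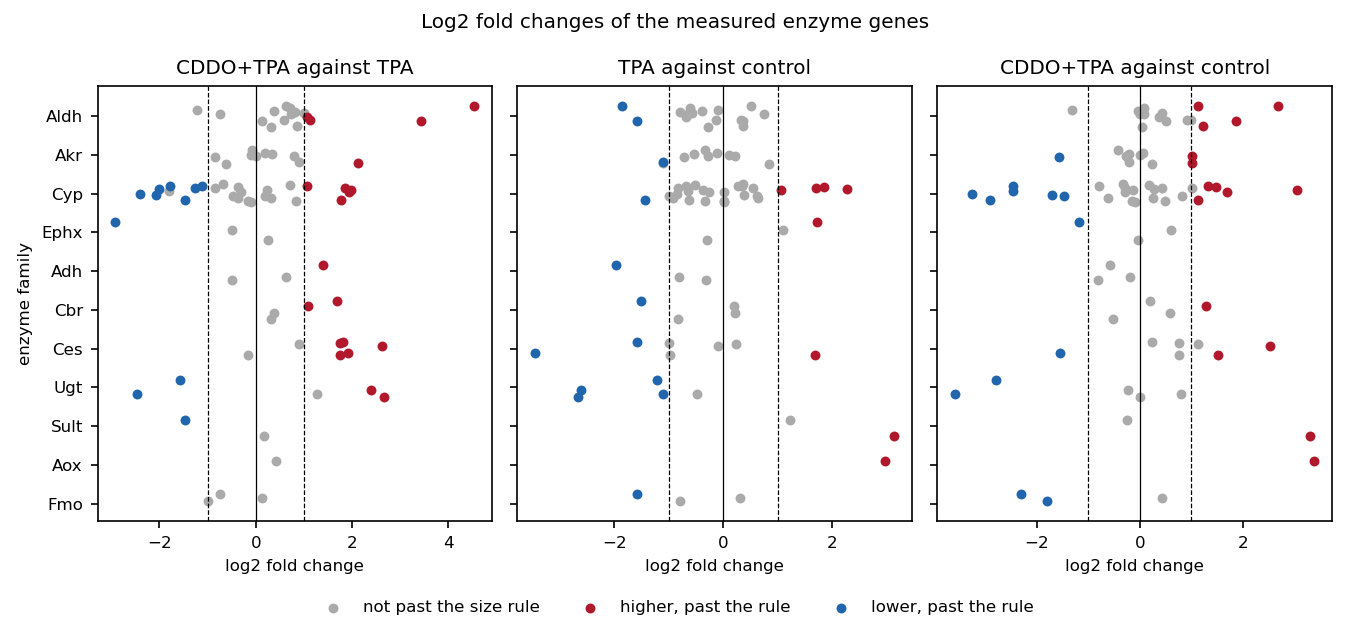
Log2 fold changes of the 80 measured enzyme genes (horizontal axis) by enzyme family (vertical axis) in the 3 comparisons; each point is a gene, coloured by whether it was past the size rule, and dashed lines mark a change of 1 in size. The Ces row has 5 genes past the rule to the right and none to the left in CDDO+TPA against TPA.

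Compared per length of transcript, as RPKM summed over the measured genes of a family, the aldehyde dehydrogenases were the most abundant class, at 352 in CDDO+TPA, 259 in TPA and 302 in control. The aldo-keto reductases summed to 268.5, 258 and 261 RPKM in CDDO+TPA, TPA and control, and the P450 genes to 203, 198 and 209.7 RPKM. Carboxylesterases summed to 48.7 RPKM in CDDO+TPA, 13.6 in TPA and 35.1 in control, and glucuronosyltransferases to 11.7, 3.07 and 15.2 RPKM in the same libraries. The lengths of Ugt1a genes include exons that they share, where reads were mainly not counted, so the Ugt sums are understated. Alcohol dehydrogenases summed to 93.9, 54.1 and 122 RPKM in CDDO+TPA, TPA and control, and carbonyl reductases to 61.9, 37.1 and 40.1 RPKM. TPA had the lowest sum in these families and in the Aldh, Akr, P450 and Ephx families, the last at 100.4, 98.6 and 105 RPKM in CDDO+TPA, TPA and control. Sulfotransferases (2.25, 2.84 and 0.469 RPKM), the aldehyde oxidase Aox1 (2.31, 1.72 and 0.171 RPKM) and flavin monooxygenases (0.671, 0.909 and 1.51 RPKM) were the least abundant, each given for CDDO+TPA, TPA and control.

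**Figure D2:**
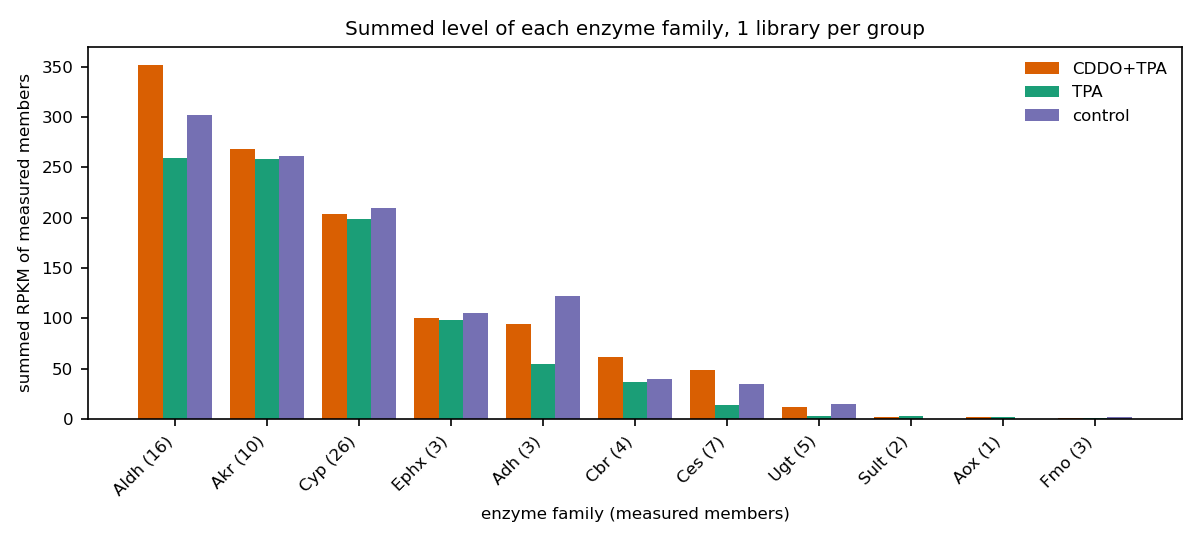
Summed RPKM of the measured genes of each enzyme family (bars start at 0) in CDDO+TPA, TPA and control, 1 library each, with the number of measured genes in brackets. Among others, the Ces, Ugt and Adh bars are lowest in TPA, and the tallest group is Aldh, at 352, 259 and 302 RPKM.

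Aldehyde dehydrogenases turn aldehydes into acids. Of 16 measured, 4 were higher and none lower in CDDO+TPA than in TPA. Aldh1a1, which oxidises retinal to retinoic acid, had 67 reads in CDDO+TPA, 1 in TPA and 9 in control. Its CPM was 67.6 times higher in CDDO+TPA than in TPA (95% interval 11.7 to 2710). It was 8.95 times lower in TPA than in control (1.24 to 392) and 7.56 times higher in CDDO+TPA than in control (3.75 to 17.2). The upper bounds are wide because the TPA library rests on a single read. Aldh1a7, a close homolog that lies beside it on chromosome 19, had 41 reads in CDDO+TPA, 2 in TPA and 10 in control. It was 20.7 times higher in CDDO+TPA than in TPA (5.37 to 177) and 4.16 times higher in CDDO+TPA than in control (2.05 to 9.32). Because 3.06% of the 50-base words of Aldh1a1 transcripts and 7.49% of those of Aldh1a7 are found in the other gene, the pair was also summed, giving 108, 3 and 19 reads in CDDO+TPA, TPA and control. The sum was 36.3 times higher in CDDO+TPA than in TPA (12.1 to 179) and 5.77 times higher in CDDO+TPA than in control (3.52 to 9.96).

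The other Aldh genes past the rule differed less. Aldh7a1, an enzyme of lysine breakdown, had 143 reads in CDDO+TPA, 68 in TPA and 112 in control, and was 2.12 times higher in CDDO+TPA than in TPA (1.58 to 2.88). Aldh3b3 had 39 reads in CDDO+TPA, 17 in TPA and 19 in control, and was 2.32 times higher in CDDO+TPA than in TPA (1.28 to 4.37). Aldh9a1, which forms a precursor of carnitine, and Aldh3b1, which acts on medium- and long-chain aldehydes, were highest in CDDO+TPA and lowest in control. Aldh9a1 had 388 reads in CDDO+TPA, 215 in TPA and 168 in control, 2.34 times higher in CDDO+TPA than in control (1.95 to 2.83). Aldh3b1 had 290, 189 and 134 reads in CDDO+TPA, TPA and control, 2.20 times higher in CDDO+TPA than in control (1.78 to 2.72). Neither was past the rule in CDDO+TPA against TPA, at folds of 1.82 (Aldh9a1) and 1.55 (Aldh3b1).

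The most abundant Aldh gene per length on average over the 3 libraries was Aldh1l2, a mitochondrial enzyme of folate metabolism, at 87.9 RPKM in CDDO+TPA, 50.3 in TPA and 87.6 in control. In TPA it stood below Aldh2 and below Aldh18a1, an enzyme of proline synthesis with 69.9, 54.0 and 71.3 RPKM in CDDO+TPA, TPA and control. Its fold of 1.75 in CDDO+TPA against TPA (1.66 to 1.84) is narrow in counting error, from 4185 and 2415 reads, but below the rule. Of the 12 mitochondrial or amino acid Aldh genes listed, 10 were measured. In CDDO+TPA against TPA only Aldh7a1 of these was past the rule, with a median log2 fold change of 0.72 over the 10. None was past it in TPA against control (median -0.49), and only Aldh9a1 in CDDO+TPA against control (median 0.08). Aldh2, the acetaldehyde dehydrogenase, had 63.3 RPKM in CDDO+TPA, 57.5 in TPA and 44.8 in control. Aldh1b1 and Aldh1a3 were listed at 0 in every library. Aox1, the remaining aldehyde oxidising gene and a molybdenum enzyme, had 80 reads in CDDO+TPA, 60 in TPA and 6 in control. It was 10.1 times higher in TPA than in control (4.36 to 28.5) and 13.5 times higher in CDDO+TPA than in control (5.95 to 38.0), while the fold between CDDO+TPA and TPA was 1.35 (0.951 to 1.91).

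**Figure D3:**
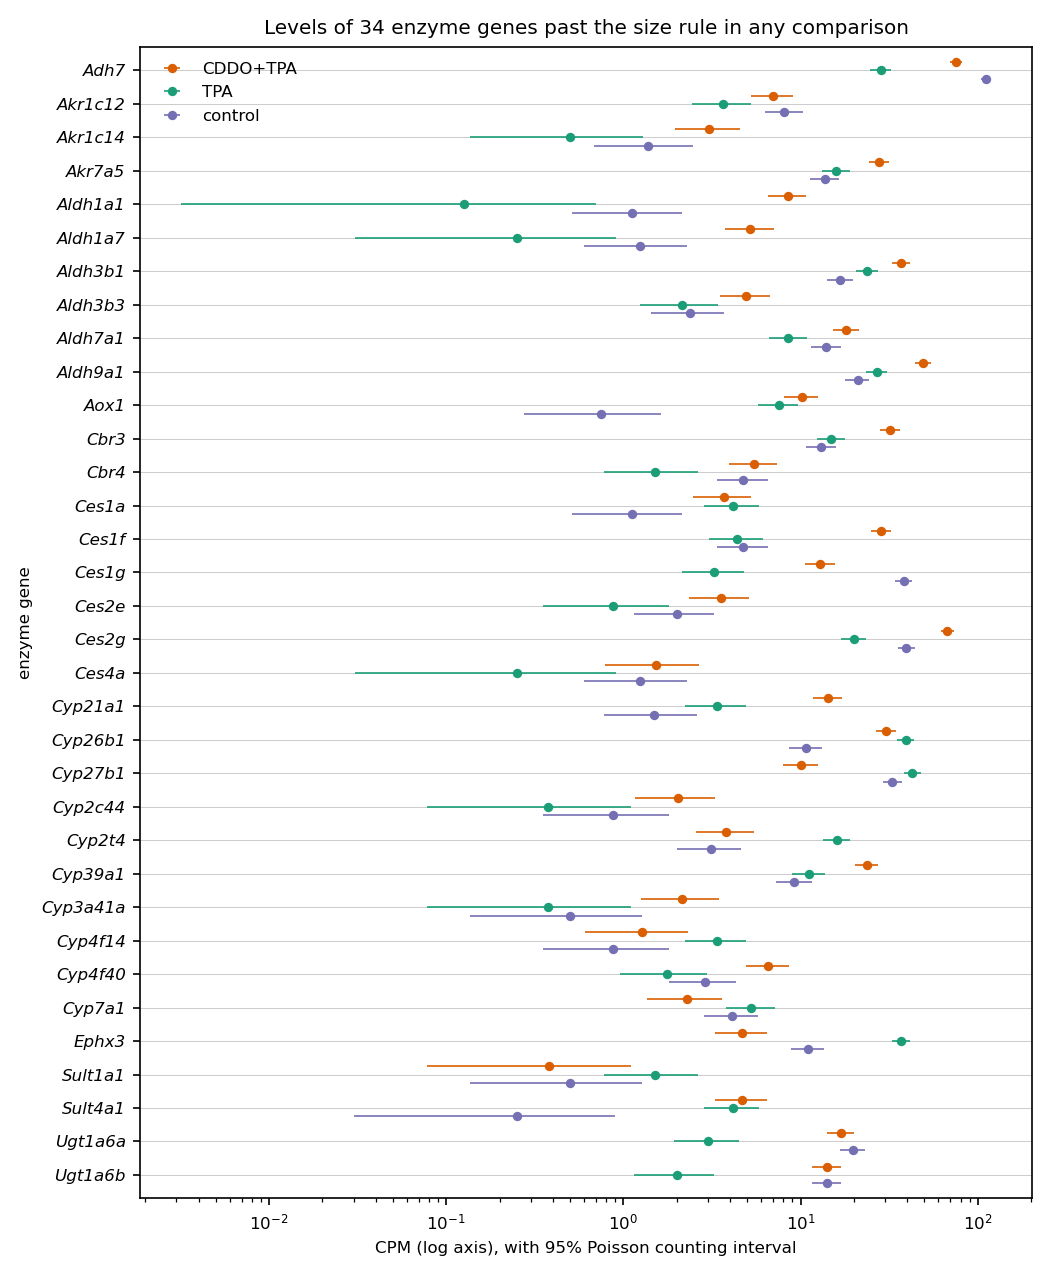
CPM (log axis) of the 34 enzyme genes past the size rule in any comparison, leaving out the 10 known from mouse kidney, with 95% Poisson counting intervals; each colour is 1 library. Aldh1a1 shows the widest separation, with 67 reads in CDDO+TPA, 1 in TPA and 9 in control.

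Carbonyl and aldose reduction was carried mainly by genes whose levels were alike in the 3 libraries. Akr1a1, the general aldehyde reductase, led the Akr family at 118 RPKM in CDDO+TPA, 103 in TPA and 112 in control, and Akr1b8, an aldose reductase relative, had 77.3, 82.9 and 76.8 RPKM. Akr1b10, its neighbour on chromosome 6, had 197 reads in CDDO+TPA, 305 in TPA and 170 in control, a fold of 1.80 in TPA against control (1.49 to 2.19), below the rule. Akr1b7 had 16, 16 and 20 reads in CDDO+TPA, TPA and control. The aldose reductase gene Akr1b3 itself was listed at 0 in every library.

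The Akr genes past the rule had few or moderate reads. Akr1c14, a steroid-reducing enzyme, had 24 reads in CDDO+TPA, 4 in TPA and 11 in control, 6.06 times higher in CDDO+TPA than in TPA (2.08 to 24.0). Akr7a5, which reduces aflatoxin dialdehyde and succinic semialdehyde, had 219 reads in CDDO+TPA, 127 in TPA and 110 in control, 2.02 times higher in CDDO+TPA than in control (1.60 to 2.57). Akr1c12 had 55 reads in CDDO+TPA, 29 in TPA and 65 in control, 2.23 times lower in TPA than in control (1.42 to 3.58). Akr1c13, the gene most like it, had 191 reads in CDDO+TPA, 205 in TPA and 260 in control and was past the rule in no comparison. The 2 genes stand on opposite strands of chromosome 13 and share 28.6% of the 50-base words of Akr1c12, so single reads may be placed on either. Their sum, 246, 234 and 325 reads in CDDO+TPA, TPA and control, was 1.38 times lower in TPA than in control (1.16 to 1.64), below the rule. The 250 bases before the RefSeq start of each (GRCm38.p6) are shown because the pair differs in value while the sequences are nearly the same: 235 aligned bases are identical (94%), with 11 mismatches and 8 gap bases. The windows are chr13:4279400-4279649 on the minus strand for Akr1c12 and chr13:4190937-4191186 on the plus strand for Akr1c13, printed 5′ to 3′, with capitals at bases that differ from or are absent in the partner.
Akr1c12: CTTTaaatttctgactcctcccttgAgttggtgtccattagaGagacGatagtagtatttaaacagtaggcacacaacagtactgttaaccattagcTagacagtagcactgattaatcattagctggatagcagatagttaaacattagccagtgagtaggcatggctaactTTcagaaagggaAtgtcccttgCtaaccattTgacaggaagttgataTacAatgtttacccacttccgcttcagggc
Akr1c13: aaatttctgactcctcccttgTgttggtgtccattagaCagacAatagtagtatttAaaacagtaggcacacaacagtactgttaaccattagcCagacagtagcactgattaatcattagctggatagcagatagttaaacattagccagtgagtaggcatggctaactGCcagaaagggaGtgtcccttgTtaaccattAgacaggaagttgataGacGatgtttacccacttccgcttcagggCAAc

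All 4 carbonyl reductase genes of the Cbr family were measured, and 2 were higher in CDDO+TPA than in TPA. Cbr3, a cytosolic NADPH-dependent reductase, had 253 reads in CDDO+TPA, 119 in TPA and 105 in control. It was 2.15 times higher in CDDO+TPA than in TPA (1.72 to 2.69) and 2.45 times higher in CDDO+TPA than in control (1.94 to 3.10). Its neighbour and closest relative Cbr1 had 198 reads in CDDO+TPA, 154 in TPA and 134 in control, below the rule, with a log2 fold change of 0.58 in CDDO+TPA against control. Per length, the order of these genes differed by library: Cbr3 had 27.5 RPKM and Cbr1 23.2 RPKM in CDDO+TPA, but Cbr3 had 12.8 and Cbr1 17.9 RPKM in TPA. In control Cbr3 had 11.2 and Cbr1 15.5 RPKM. Cbr4, a mitochondrial quinone reductase, had 43 reads in CDDO+TPA, 12 in TPA and 38 in control. It was 3.62 times higher in CDDO+TPA than in TPA (1.87 to 7.53) and 3.15 times lower in TPA than in control (1.61 to 6.62).

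Alcohol dehydrogenases oxidise alcohols, retinol among them. Adh7, the class of enzyme known from epithelia with high activity on retinol, had 594 reads in CDDO+TPA, 226 in TPA and 897 in control. It was lowest in TPA, 3.95 times lower than in control (3.41 to 4.59) and 2.65 times higher in CDDO+TPA than in TPA (2.27 to 3.11). Adh5, the glutathione-dependent formaldehyde dehydrogenase, was the most abundant Adh gene per length on average, at 53.6 RPKM in CDDO+TPA, 34.5 in TPA and 60.9 in control, below the rule throughout. Adh1 had 44 reads in CDDO+TPA, 63 in TPA and 80 in control.

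Retinol metabolism joins these classes: Adh enzymes form retinal, Aldh1a enzymes form retinoic acid, and Cyp26 enzymes degrade it. Cyp26b1 had 239 reads in CDDO+TPA, 312 in TPA and 86 in control, 3.65 times higher in TPA than in control (2.87 to 4.69) and 2.82 times higher in CDDO+TPA than in control (2.20 to 3.65). It was high in both treated libraries, whereas Adh7, Aldh1a1 and Aldh1a7 were low in TPA. Of 10 retinoid enzyme genes listed, 6 were measured. Of these, 3 were higher and none lower in CDDO+TPA than in TPA (median log2 fold change 1.02). In TPA against control, 1 was higher and 3 lower (median -1.20), and in CDDO+TPA against control 3 were higher and none lower (median 0.65). Of 17 binding proteins, receptors and other retinoid genes outside the families, 10 were measured, of which 1 was lower in CDDO+TPA than in TPA, 2 were higher and 1 lower in TPA than in control, and none was past the rule between CDDO+TPA and control. Crabp2, which carries retinoic acid to its receptor, had 30 reads in CDDO+TPA, 206 in TPA and 33 in control, 6.80 times lower in CDDO+TPA than in TPA (4.62 to 10.3) and 6.28 times higher in TPA than in control (4.33 to 9.37). Dhrs9, a retinol dehydrogenase, had 357 reads in CDDO+TPA, 242 in TPA and 572 in control, 2.35 times lower in TPA than in control (2.02 to 2.74). Rarb, a retinoic acid receptor, had 5 reads in CDDO+TPA, 10 in TPA and none in control. Rarg led the list per length, at 55.0 RPKM in CDDO+TPA, 55.7 in TPA and 67.0 in control.

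Carboxylesterases split esters and amides and take part in lipid turnover. Of 7 measured, 5 were higher and none lower in CDDO+TPA than in TPA. Ces2g, the most abundant per length on average though below Ces1g in control, had 532 reads in CDDO+TPA, 159 in TPA and 317 in control. It was 3.38 times higher in CDDO+TPA than in TPA (2.82 to 4.06), and at 1.98 times lower in TPA than in control (1.63 to 2.41) it was just short of the rule there. Ces1f had 225 reads in CDDO+TPA, 35 in TPA and 38 in control, 6.49 times higher in CDDO+TPA than in TPA (4.53 to 9.55) and 6.01 times higher in CDDO+TPA than in control (4.25 to 8.72). Its neighbour Ces1g had 102 reads in CDDO+TPA, 26 in TPA and 306 in control. Ces1g was 3.96 times higher in CDDO+TPA than in TPA (2.55 to 6.35), 11.7 times lower in TPA than in control (7.83 to 18.2) and 2.95 times lower in CDDO+TPA than in control (2.35 to 3.73). So Ces1f was high in CDDO+TPA alone, while Ces1g was highest in control. Both lie on the minus strand of chromosome 8, at chr8:93256236-93279736 (Ces1f) and chr8:93302369-93337209 (Ces1g) in mm10, and share at most 1.67% of their 50-base words with any other gene.

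The other carboxylesterases had few reads. Ces2e had 28 reads in CDDO+TPA, 7 in TPA and 16 in control, 4.04 times higher in CDDO+TPA than in TPA (1.72 to 10.9). Ces4a had 12, 2 and 10 reads in CDDO+TPA, TPA and control, 6.06 times higher in CDDO+TPA than in TPA (1.35 to 55.7) and 4.97 times lower in TPA than in control (1.06 to 46.7). Ces1a differed from these in being lowest in control: it had 29 reads in CDDO+TPA, 33 in TPA and 9 in control, 3.69 times higher in TPA than in control (1.73 to 8.76) and 3.27 times higher in CDDO+TPA than in control (1.51 to 7.86). Ces2f had 11, 5 and 4 reads in CDDO+TPA, TPA and control, and Ces5a, Ces3a and Ces3b were among 4 Ces genes with no read.

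Of 5 measured Ugt genes, 2 were higher and 2 lower in CDDO+TPA than in TPA, and 4 were lower in TPA than in control. Ugt2b38 and Ugt3a2, lower in both of these comparisons, are described with the kidney genes. Ugt1a6a and Ugt1a6b, which conjugate phenols, had 133 and 111 reads in CDDO+TPA, 24 and 16 in TPA, and 158 and 113 in control. All Ugt1a genes share their last exons, which make up 70.1% of the exonic length of Ugt1a6a and 57.2% of that of Ugt1a6b. No option to count reads in exons of several genes stood in the counting command, so these values rest mainly on the exons that are their own. Since 79.8% of the 50-base words of Ugt1a6b transcripts are found in other genes, mainly Ugt1a6a, the pair was summed, and it came to 244 reads in CDDO+TPA, 40 in TPA and 271 in control. The sum was 6.16 times higher in CDDO+TPA than in TPA (4.39 to 8.83) and 6.74 times lower in TPA than in control (4.82 to 9.64). CDDO+TPA and control differed by a ratio of 0.914 (0.766 to 1.09), an interval that includes 1. Ugt1a7c had 10, 3 and 5 reads in CDDO+TPA, TPA and control, and 10 of the 21 Ugt genes had no read.

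Sulfotransferases were sparse, with 2 of 19 genes measured and 11 at 0 in every library, among them Sult1e1 and Sult1b1. Sult4a1, a form known mainly from brain, had 37 reads in CDDO+TPA, 33 in TPA and 2 in control. It was 16.6 times higher in TPA than in control (4.25 to 143) and 18.8 times higher in CDDO+TPA than in control (4.85 to 161). Sult1a1, a phenol sulfotransferase, had 3 reads in CDDO+TPA, 12 in TPA and 4 in control, 3.96 times lower in CDDO+TPA than in TPA (1.07 to 21.9).

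Epoxide hydrolases open epoxides by adding water. Ephx1, the microsomal enzyme for foreign epoxides, had 97.4 RPKM in CDDO+TPA, 81.8 in TPA and 100 in control and was past the rule in no comparison. Ephx3, which acts on fatty acid epoxides and is expressed in mouse skin, had 37 reads in CDDO+TPA, 294 in TPA and 88 in control. It was 7.87 times lower in CDDO+TPA than in TPA (5.58 to 11.4), 3.36 times higher in TPA than in control (2.64 to 4.31) and 2.34 times lower in CDDO+TPA than in control (1.58 to 3.54). Ephx3 was thus highest in TPA and lowest in CDDO+TPA, while Ephx4 had 10, 15 and 6 reads in CDDO+TPA, TPA and control.

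The P450 genes were the largest family, with 102 genes in the table, 26 measured and 39 at 0 in every library, including Cyp2r1, Cyp19a1 and Cyp11a1. Of the 26, 5 were higher and 7 lower in CDDO+TPA than in TPA. The most abundant per length on average was Cyp2c55, an enzyme that oxidises arachidonic acid, at 51.7 RPKM in CDDO+TPA, 31.7 in TPA and 45.7 in control, below the rule throughout. Cyp20a1, an orphan P450, had 42.7, 36.0 and 46.6 RPKM in CDDO+TPA, TPA and control, above Cyp2c55 in TPA and control.

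P450 genes of sterol and steroid metabolism moved in different directions. Cyp27b1, which makes active vitamin D, had 79 reads in CDDO+TPA, 341 in TPA and 264 in control, 4.28 times lower in CDDO+TPA than in TPA (3.34 to 5.53) and 3.29 times lower in CDDO+TPA than in control (2.55 to 4.29). Cyp21a1, the steroid 21-hydroxylase, had 112 reads in CDDO+TPA, 27 in TPA and 12 in control. It was 4.19 times higher in CDDO+TPA than in TPA (2.73 to 6.63), 2.26 times higher in TPA than in control (1.11 to 4.90) and 9.48 times higher in CDDO+TPA than in control (5.22 to 18.9). Of the 50-base words of its transcripts, 21.3% are shared with the pseudogene Cyp21a2-ps, so its reads are uncertain. Cyp39a1, an oxysterol hydroxylase, had 186 reads in CDDO+TPA, 89 in TPA and 74 in control, 2.11 times higher in CDDO+TPA than in TPA (1.63 to 2.75) and 2.55 times higher in CDDO+TPA than in control (1.94 to 3.39). Cyp7a1, the first enzyme of bile acid synthesis from cholesterol, had 18 reads in CDDO+TPA, 42 in TPA and 33 in control, 2.31 times lower in CDDO+TPA than in TPA (1.30 to 4.27). Of 15 such genes listed, 5 were measured, and their median log2 fold change was 0.19 in CDDO+TPA against TPA, with 2 higher and 2 lower. In TPA against control 1 was higher (median 0.38), and in CDDO+TPA against control 2 were higher and 1 lower (median 0.81).

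Other P450 genes past the rule were sparse, apart from Cyp2t4. Cyp2t4 had 30 reads in CDDO+TPA, 128 in TPA and 25 in control, 4.23 times lower in CDDO+TPA than in TPA (2.82 to 6.52) and 5.15 times higher in TPA than in control (3.34 to 8.26). Cyp4f14, which inactivates leukotriene B4, had 10 reads in CDDO+TPA, 27 in TPA and 7 in control, and like Cyp2t4 and Ephx3 was highest in TPA. It was 2.68 times lower in CDDO+TPA than in TPA (1.25 to 6.19) and 3.88 times higher in TPA than in control (1.65 to 10.6). Cyp4f40 had 52 reads in CDDO+TPA, 14 in TPA and 23 in control, 3.75 times higher in CDDO+TPA than in TPA (2.05 to 7.32) and 2.30 times higher in CDDO+TPA than in control (1.38 to 3.93). Cyp2c44, an arachidonic acid epoxygenase, had 16, 3 and 7 reads in CDDO+TPA, TPA and control, 5.38 times higher in CDDO+TPA than in TPA (1.54 to 28.8). Cyp3a41a had 17, 3 and 4 reads in CDDO+TPA, TPA and control, 5.72 times higher in CDDO+TPA than in TPA (1.65 to 30.5), and shares 93.7% of its 50-base words with Cyp3a41b, which had no read. Of 22 genes of fatty acid and eicosanoid oxidation, Ephx3 among them, 13 were measured. In CDDO+TPA against TPA none was higher and 4 were lower (median -0.38). In TPA against control 2 were higher and 1 lower (median 0.02), and in CDDO+TPA against control 1 was higher and 4 lower (median -0.15). These counts hold for the listed genes only: Cyp2c44 and Cyp4f40, both higher in CDDO+TPA than in TPA, and Cyp2c55 were not listed. Among the lower genes, Cyp4b1 (all 3 comparisons), Cyp2j5 (both of CDDO+TPA) and Cyp4a12a (CDDO+TPA against control) belong to the kidney set described next.

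A set of 10 sparse members known from mouse kidney was lowest in CDDO+TPA and highest in control. They are Cyp2e1, Cyp4b1, Cyp2j5, Cyp2j13, Cyp4a12a, Ugt2b38, Ugt3a2, Fmo1, Fmo2 and Akr1c21. These genes were grouped after their values were seen, so their common order is a description and does not speak for other kidney enzyme genes. Together they had 26 reads in CDDO+TPA, 111 in TPA and 248 in control. Each was past the rule as lower in CDDO+TPA than in control, 5 were lower in CDDO+TPA than in TPA and 4 lower in TPA than in control. Cyp4b1, which oxidises fatty acids and foreign amines, had 7 reads in CDDO+TPA, 23 in TPA and 66 in control, 9.29 times lower in CDDO+TPA than in control (4.26 to 24.0). Cyp2e1, the ethanol-oxidising P450, had 7 reads in CDDO+TPA, 29 in TPA and 48 in control, 6.75 times lower in CDDO+TPA than in control (3.04 to 17.7). Cyp2j5, an arachidonic acid epoxygenase, had 1, 14 and 27 reads in CDDO+TPA, TPA and control. Ugt3a2, a sugar transferase, had 2, 10 and 26 reads in CDDO+TPA, TPA and control, 12.8 times lower in CDDO+TPA than in control (3.21 to 111). Ugt2b38 had no read in CDDO+TPA, 9 in TPA and 22 in control, at least 7.22-fold lower in CDDO+TPA than in control against a floor of 3 reads in that library. Cyp4a12a, a fatty acid hydroxylase, had 0, 5 and 9 reads in CDDO+TPA, TPA and control. At the same floor it was 2.95-fold lower in CDDO+TPA than in control, with a lower bound of 1.94-fold. The flavin monooxygenase genes Fmo1 (2, 6 and 12 reads) and Fmo2 (1, 3 and 13 reads), with Cyp2j13 (3, 5 and 12 reads) and Akr1c21 (3, 7 and 13 reads), kept the same order of CDDO+TPA, TPA and control. Fmo5, the Fmo gene outside this set, had 22, 20 and 16 reads in those libraries.

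Kidney genes outside the families moved with these members. A list of 26 kidney markers, also drawn up after the values were seen, had 236 reads in CDDO+TPA, 534 in TPA and 1000 in control. Of the 26, 7 had no read in CDDO+TPA, none was without reads in TPA, and 1 was without in control. Of these, 19 were measured, and 16 were lower in CDDO+TPA than in control past the rule, 10 lower in CDDO+TPA than in TPA and 8 lower in TPA than in control, with none higher. Kap, a kidney androgen-regulated gene, had 25 reads in CDDO+TPA, 95 in TPA and 142 in control, and Slc34a1, the phosphate transporter of the proximal tubule, had 12, 44 and 102. Lrp2, the endocytic receptor megalin, had 20 reads in CDDO+TPA, 34 in TPA and 173 in control. Cubn, its partner, was nearly level, with 135, 137 and 141 reads in CDDO+TPA, TPA and control. Their part in the result was not tested, nor was whether these reads come from JB6 cells or from RNA of another sample. None of the 10 members was past the rule as higher in any comparison, so leaving them out could not change the counts of higher genes.

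**Figure D4:**
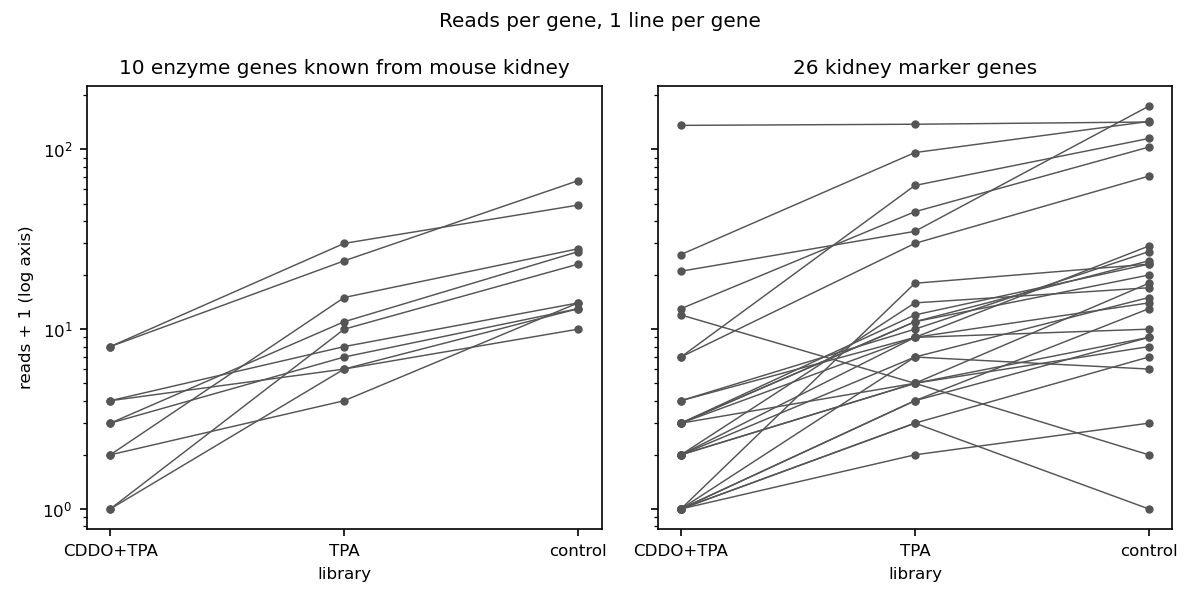
Reads plus 1 (log axis) in CDDO+TPA, TPA and control for the 10 enzyme genes known from mouse kidney (left) and the 26 kidney markers (right), 1 line per gene, grouped after the values were seen. The left-hand genes sum to 26, 111 and 248 reads and the right-hand genes to 236, 534 and 1000.

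The list of members linked to NRF2 by earlier knowledge, chosen with earlier results of these data known, held 29 genes, 20 of them measured. Over these 20 the median log2 fold change in CDDO+TPA against TPA was 0.98. In that comparison 10 were higher and none lower, where 7.87% and 7.78% of all measured genes were. These 10 are Aldh1a1, Aldh7a1, Akr1c14, Cbr3, Ces1f, Ces1g, Ces2e, Ces2g, Ugt1a6a and Ugt1a6b. In TPA against control, 1 was higher (Aox1) and 5 lower, where 9.57% and 5.91% of all genes were, with a median of -0.31. In CDDO+TPA against control, 6 were higher and 1 lower (Ces1g), where 8.02% and 3.37% of all genes were, with a median of 0.30. Akr1a1, Akr1b8 and Ephx1, 3 of the most abundant genes on the list, were past the rule in no comparison, the widest difference being that of Ephx1, 1.23 times lower in TPA than in control (1.13 to 1.33).

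Among 27 other carbonyl and quinone enzymes outside the families, 26 were measured, and 6 were higher and none lower in CDDO+TPA than in TPA (median log2 fold change 0.51). Ptgr1, a reductase of unsaturated aldehydes and prostaglandins, had 186 reads in CDDO+TPA, 39 in TPA and 33 in control, 4.81 times higher in CDDO+TPA than in TPA (3.39 to 6.98). Hsd11b1, which regenerates active glucocorticoid, had 142 reads in CDDO+TPA, 15 in TPA and 89 in control, 9.55 times higher in CDDO+TPA than in TPA (5.60 to 17.5) and had a log2 fold change of -2.41 in TPA against control. The quinone reductase gene Nqo1 had 997, 139 and 80 reads in CDDO+TPA, TPA and control, and Nqo2 had 504, 191 and 278. The short-chain dehydrogenase gene Dhrs7 had 351, 143 and 526 reads in CDDO+TPA, TPA and control, and the acetyltransferase gene Nat2 had 45, 17 and 50. In TPA against control 1 gene was higher, Adhfe1, with 4, 11 and 2 reads in CDDO+TPA, TPA and control, and 3 were lower (Hsd11b1, Dhrs7 and Nat2). Nqo1 and Ptgr1 were higher in CDDO+TPA than in control, and none was lower. Hsd17b10 led this list per length on average, though not in control, at 86.0 RPKM in CDDO+TPA, 86.3 in TPA and 76.6 in control.

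Of 27 listed genes that supply electrons and cofactors to these enzymes, 26 were measured, and 3 were higher and 1 lower in CDDO+TPA than in TPA (median log2 fold change 0.22). Cyb5a, an electron donor to P450 enzymes, had 270 reads in CDDO+TPA, 132 in TPA and 169 in control. Gusb, which removes glucuronic acid, had 1033, 502 and 729 reads in CDDO+TPA, TPA and control, and Slc26a2, a sulfate transporter, had 19, 4 and 6. Fdx1l, a mitochondrial ferredoxin, was lower, with 20 reads in CDDO+TPA, 45 in TPA and 30 in control. Por, the reductase that all microsomal P450 enzymes need, had 1301 reads in CDDO+TPA, 1246 in TPA and 1107 in control. Cyb5r3 led the list per length on average, at 123 RPKM in CDDO+TPA, 96.2 in TPA and 113 in control, close to Cyb5r1 at 85.7, 99.9 and 143 RPKM in the same libraries. None was past the rule in TPA against control, and 1 (Slc26a2) was in CDDO+TPA against control.

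Of 19 receptors and partners that regulate such genes, 15 were measured. In CDDO+TPA against TPA none was higher and 2 were lower (Ppara and Hnf4a), with a median log2 fold change of -0.22. In TPA against control Ahr and Ppara were higher and Hnf4a lower, and in CDDO+TPA against control Ahr was higher and Hnf4a, Nr1h3 and Nr1h4 were lower. Ahr, the aryl hydrocarbon receptor, had 145 reads in CDDO+TPA, 185 in TPA and 61 in control. Ppara, a fatty acid sensor, had no read in CDDO+TPA, 25 in TPA and 1 in control. Hnf4a, a factor of liver, kidney and gut that also stands on the kidney and hepatocyte lists, had 2, 10 and 23 reads in CDDO+TPA, TPA and control. The oxysterol and bile acid receptor genes Nr1h3 (1, 5 and 10 reads) and Nr1h4 (5, 9 and 18 reads) had the same order of libraries. The drug-sensing receptor genes Nr1i2 and Nr1i3 had no read in any library. Nr1h2 led the list per length, at 57.8 RPKM in CDDO+TPA, 72.0 in TPA and 70.1 in control.

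Promoter windows (250 bases before to 50 after the RefSeq start, GRCm38.p6) were found for 64 of the 80 members, 74 windows in all. The antioxidant response element core TGACNNNGC, sought on both strands, was in 4 of them (5.41%), where 12.4% of 32851 promoters in the table and 14.4% of the 12530 promoters of measured genes held it. The xenobiotic response element core GCGTG, also on both strands, was in 20 (27.03%), where 32.4% of all promoters and 49.4% of those of measured genes did. Of the 20 members higher in CDDO+TPA than in TPA, 14 had 16 windows, with TGACNNNGC in 0 and GCGTG in 3 (18.75%). Of the 11 that were lower, 9 had 12 windows, with 1 holding each core. The letters are a description of these windows and say nothing of sites elsewhere. The upstream 250 bases of 3 members are shown in lower case with any TGACNNNGC match in capitals: Aldh1a1, which had the largest fold and no match, and Aldh9a1 and Cyp4f14, whose match lies upstream of a RefSeq start. The windows are chr19:20601718-20601967 (plus strand) for Aldh1a1, chr1:167349741-167349990 (plus strand) for Aldh9a1 and chr17:32917088-32917337 (minus strand) for Cyp4f14. Cyp4f14 has several RefSeq starts, and the window shown lies inside the counted span of the gene (chr17:32905070-32917342). The windows of its other starts held no match.
Aldh1a1: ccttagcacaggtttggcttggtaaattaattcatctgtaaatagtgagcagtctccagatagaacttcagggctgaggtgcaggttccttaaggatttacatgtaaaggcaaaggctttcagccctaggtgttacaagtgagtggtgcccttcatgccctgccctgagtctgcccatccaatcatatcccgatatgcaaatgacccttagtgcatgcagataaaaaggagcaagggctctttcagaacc
Aldh9a1: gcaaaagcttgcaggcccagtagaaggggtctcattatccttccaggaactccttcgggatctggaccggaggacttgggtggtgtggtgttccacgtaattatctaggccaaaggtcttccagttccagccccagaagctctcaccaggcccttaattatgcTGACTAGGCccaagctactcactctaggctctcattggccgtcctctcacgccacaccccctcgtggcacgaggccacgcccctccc
Cyp4f14: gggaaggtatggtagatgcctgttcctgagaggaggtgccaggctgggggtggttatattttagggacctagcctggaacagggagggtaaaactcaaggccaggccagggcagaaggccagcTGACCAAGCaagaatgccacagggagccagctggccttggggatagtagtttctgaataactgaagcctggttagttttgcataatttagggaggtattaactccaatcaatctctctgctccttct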

How the data were processed

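For 3 libraries of total RNA, the authors deposited 1 table of raw counts, in whole numbers. Per the file headers, counts were made with featureCounts 1.5.3 from primary alignments, with no option for strand or multi-mapping reads, and the column names carry a mark of duplicate removal. HISAT2, Picard, DESeq and the build mm10 are named in the submitters' processing notes. Removing duplicates by position can cap the reads of abundant genes; the members held at most 0.929 reads per exonic base. The command lists 7 alignment files, of which 3 columns are present. A column is named for CDDO with no mention of TPA. It was read as CDDO+TPA, since no other sample's labels mention CDDO, and values given for CDDO+TPA rest on that reading.

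Library sizes were scaled by TMM factors of 1.00 (CDDO+TPA), 1.02 (TPA) and 0.978 (control) with edgeR 4.0.16 in R 4.3.3. Log2 CPM had a prior count of 2, which understates folds of sparse genes. RPKM is CPM per kilobase of the exonic length in the table. Fold intervals are exact conditional binomial (Clopper-Pearson) and level intervals exact Poisson, both at 95%; reads are not independent molecules. No p-value was computed, as there was 1 library per group. The size rule and its intervals were tried on simulated Poisson counts, which hold no variation between cultures and no change in sparse genes. Sequences are from RefSeq tables of GRCm38.p6, and shared 50-base words from GENCODE transcripts. Protein identity was not analysed here.

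Named genes are all members past the rule, the most abundant of each family per length, measured members of the NRF2-linked and retinoid lists, and genes of the other lists that passed the rule or led per length. A few more were named after their values were seen. The members and lists were chosen with earlier results of these data known. Alternatives were DESeq2 1.42.0 size factors, total and upper-quartile scaling, other prior counts, filters and fold thresholds.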

Additional observations from a re-analysis of the deposited data

How the results depend on the processing

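No result reversed. No paired analysis was possible because each group has 1 library. DESeq2, total and upper-quartile scaling moved no count of members by 1.5 times and no median by 0.1. With no filter on low values the median log2 fold change in CDDO+TPA against TPA fell from 0.31 to 0.00, many added members having few reads. Keeping genes with a mean of at least 10 CPM left 37 members. Of these, 9 were higher and 2 lower in CDDO+TPA against TPA (5.28% and 2.3% of all genes kept), 2 and 4 in TPA against control (3.85% and 4.81%), and 7 and 3 in CDDO+TPA against control (5.13% and 1.67%). A 4-fold threshold left 6 higher and 5 lower of 80 in CDDO+TPA against TPA (2.09% and 3.38% of all genes), 3 and 3 in TPA against control (4.12% and 1.12%), and 5 and 7 in CDDO+TPA against control (2.42% and 0.847%). In that last comparison more members were then lower than higher, unlike under the main rule (16 higher and 13 lower). All 7 of those lower belong to the sparse set known from kidney, which was grouped after its values were seen. A 1.5-fold threshold gave 22 lower in TPA against control (13.7% of all genes). Without the 10 members known from kidney, an alternative chosen after seeing the data, 6 were lower in CDDO+TPA than in TPA and 3 lower in CDDO+TPA than in control, with a median of 0.24 for CDDO+TPA against control and -0.13 for TPA against control. A prior count of 5 took 4 calls from the rule: Cyp21a1 and Ugt2b38 in TPA against control, and Akr1c14 and Akr7a5 in CDDO+TPA against control. Aldh3b3 in CDDO+TPA against control came past the rule with a prior count of 0.5 and with total or upper-quartile scaling. Depth limits the sparse genes: 27 of the 80 members were under 5 CPM in every library.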
